A study of Mus musculus with 40 samples.

Results

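Colonic mucosa of mice mono-associated with Escherichia coli Nissle was compared with that of germ-free mice. These were 20 of the 40 samples of the series: 10 labelled E. coli Nissle, colonised for 21 days, and 10 labelled germfree, which were the controls and have no colonisation time. A sample was a member if its column in the table of threshold cycles carried the Nissle or the Ax (germ-free) name. Expression was read by real-time quantitative PCR with custom TaqMan OpenArray assays, each in a small well of its own. The other samples, 10 mono-associated with E. coli CEC for 21 days and 10 conventional, entered only the shared estimate of spread and the direct comparisons given near the end. The labels give no mouse strain, sex, age or dose of bacteria. They also leave unsettled whether a sample is 1 mouse, since the design text speaks of pooled RNA, so p-values measure the spread between these samples alone, which may be technical.

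Germ-free mice are raised without any microbes, so adding 1 strain isolates the response of the mucosa to that strain. E. coli Nissle is a non-pathogenic strain that is used as an oral probiotic. The colonic epithelium meets luminal bacteria through receptors for microbial molecules and answers with mucus, antimicrobial peptides and signals to immune cells, and it also carries enzymes that handle foreign compounds. The assays here have TaqMan IDs only, and no file pairs an ID with a gene. Which of these functions an assay measures is therefore not stated, and each assay is described by its ID and its values. In the supplier's naming, an ID ending in m1 marks a probe across an exon junction and one ending in g1 an assay that can also amplify genomic DNA.

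A threshold cycle (Ct) is the PCR cycle at which fluorescence crosses a set level, so a low Ct means much template. A Ct of 40 marks a well without amplification and was left missing. Log2 relative expression is the median Ct of a sample minus the Ct of the assay: a value of 0 is the level of the sample's typical assay, and each unit is 1 cycle. Of the 224 assays, 215 had a measured Ct in at least 5 samples of both groups and are described. The other 9 had too few measured values in at least 1 group.

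The sample median Ct ran from 21.36 to 22.52 in Nissle and from 21.44 to 22.69 in germ-free samples. The means were 21.99 ± 0.457 (SD, n = 10) and 22.11 ± 0.351 (SD, n = 10), a difference of -0.12 cycles (permutation test, two-sided, p = 0.51). Between 206 and 215 assays were measured in a Nissle sample and between 202 and 214 in a germ-free sample. Nissle replicate 8 stood apart. Its median absolute difference from the other Nissle samples was 1.17 log2 units, against 0.372 to 0.557 for the other 9. It was the highest or the lowest Nissle sample in 113 of the 167 assays measured in all 20 samples (67.7%), while each other Nissle sample was so in 10 to 43. Nissle replicates 4 and 5 were the closest Nissle pair, at 0.191 log2 units, near the closest germ-free pair at 0.202. Counts are given with and without Nissle replicates 4, 5 and 8.

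After Nissle, 16 of the 215 assays passed the threshold (limma, adjusted p under 0.05), which is 7.44% of those tested: 11 were higher (5.12%) and 5 lower (2.33%). At an unadjusted p under 0.05 there were 52. Of the 16, 9 moved by more than 1 log2 unit, 6 up and 3 down. In a bulk sample, fewer cells of a type and less RNA per cell cannot be told apart. Most of the panel lay close to the germ-free level. The median difference was 0.07 log2 units, and 152 assays (70.7%) differed by less than 0.5. For 123 assays (57.2%) the 95% confidence interval of the difference lay within 1 log2 unit on either side of 0, so a larger change is outside the interval. Without Nissle replicate 8 the calls numbered 15, 8 higher and 7 lower: 4 of the 16 were lost, 3 of them higher, and 3 lower assays were added. Without Nissle replicates 4 and 5 there were 25.

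**Figure D1:**
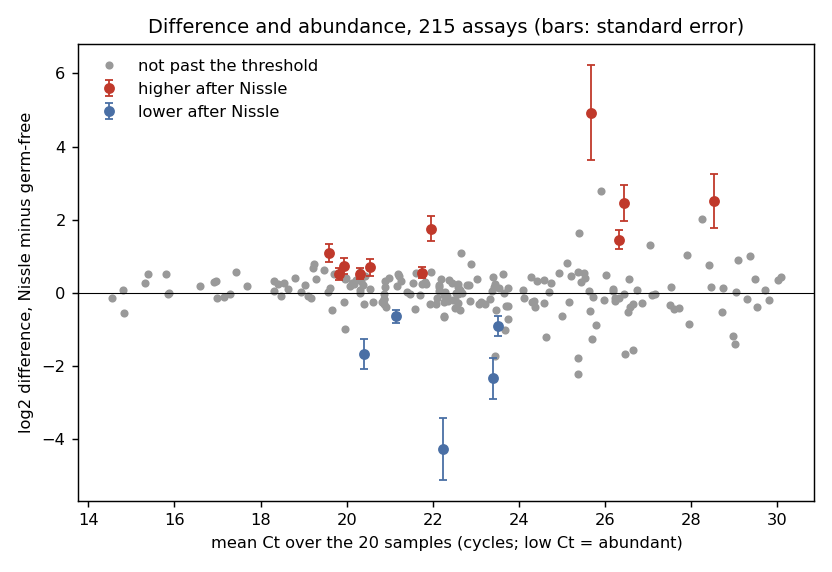
The log2 difference (Nissle minus germ-free) of 215 assays is plotted against the mean Ct over the 20 samples, in cycles; coloured points passed the threshold and bars are standard errors. The largest rise is 4.93 and the largest fall -4.27, and differences scatter more widely at high Ct, where assays are scarce.

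Differences of scarce assays had larger standard errors. Spread between samples and measurement error both enter these and were not separated. In the third of assays with the lowest mean Ct (14.54 to 21.21 cycles) the median standard error of the difference was 0.231 log2 units, and 7 of 72 assays passed. In the third with the highest mean Ct (24.36 to 30.09 cycles) it was 0.467, and 4 of 72 passed although 18 differed by more than 1 log2 unit. Over the panel 26 assays (12.1%) differed by more than 1 log2 unit, of which 17 did not pass. These 17 were 7 higher and 10 lower, with adjusted p from 0.0519 to 0.497.

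The largest rise past the threshold was in Mm00655850_m1. Its relative expression ran from -4.50 to 1.72 in Nissle samples, with a median of -0.44. Germ-free samples ran from -15.23 to -2.74, with a median of -4.77. All 10 Nissle samples lay above the germ-free mean, and 7 of them above the highest germ-free sample. The 3 that overlapped were replicates 1, 6 and 7, between -4.50 and -3.39. The mean was 30.6-fold higher after Nissle, which is 4.93 log2 units with an error (SE) of 1.3 (limma, adjusted p = 0.013). The lowest germ-free value, in replicate 31, was a Ct of 36.67, and without that sample the rise was 15.1-fold (adjusted p = 0.0272). When wells later than 30 cycles were treated as undetermined it was 10.4-fold and missed the threshold (adjusted p = 0.0571). Over its alternatives the adjusted p ran from 0.0035 to 0.0571.

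Mm01220132_g1, the second-largest rise among assays past the threshold, was scarce in both groups. Nissle samples ran from -7.34 to 0.41 with a median of -6.21, and the 8 germ-free samples with a measured Ct from -9.43 to -6.52 with a median of -7.94. The other 2 germ-free values had been filled in before deposit and were left out. Nissle replicate 7, at 0.41, stood far above the next Nissle sample at -4.38, and 3 Nissle samples lay within the germ-free range. The rise was 5.7-fold (limma, adjusted p = 0.0295) and 3.64-fold without Nissle replicate 7 (adjusted p = 0.0361). The call did not hold throughout: it was lost in 6 of 34 alternatives, among them the fit of Nissle and germ-free alone (adjusted p = 0.0596), and its adjusted p ranged from 0.0121 to 0.0692.

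Mm00445845_m1 fell most. It was abundant in germ-free mucosa, where 9 samples lay between 1.23 and 3.48 and replicate 20 at -1.27. After Nissle 8 samples lay between -4.93 and -1.12, while replicates 4 and 5 stayed at 2.93 and 2.79, within the germ-free range. The fall was 19.2-fold over all samples, or -4.27 log2 units (SE 0.842, limma, adjusted p = 0.000577). Without replicates 4 and 5 it was 47.1-fold, which is larger by construction, since these were the highest Nissle samples. The Nissle group was thus split, with no sample between -1.12 and 2.79.

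Mm00484138_m1 fell in every Nissle sample relative to the germ-free mean. Nissle samples ran from -3.49 to -0.91 with a median of -2.71, and germ-free samples from -2.53 to 1.91 with a median of -0.24. The fall was 5.03-fold, or -2.33 log2 units (SE 0.55, limma, adjusted p = 0.0048). Here too replicates 4 and 5 were the highest Nissle samples, at -0.91 and -1.10. The lowest germ-free sample was again replicate 20, so 5 Nissle samples lay below the whole germ-free range.

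Nissle and germ-free ranges did not overlap in 3 of 215 assays (1.4%), all higher after Nissle. These 3 and the next assay described were picked out after their values had been seen. Mm00448160_m1 ran from -3.77 to -2.38 in Nissle and from -7.22 to -4.70 in germ-free samples. It was 5.49-fold higher (limma, adjusted p = 0.000577). Mm00437040_m1 ran from -4.17 to -2.16 in Nissle and from -6.55 to -4.29 in germ-free samples, with a narrow gap between the groups. It was 2.75-fold higher and had the smallest adjusted p of the comparison (limma, 0.000469).

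Mm00470560_m1, the other assay without overlap, did not pass in the fit over all groups. Nissle samples lay between -3.13 and -1.90 and germ-free samples between -4.87 and -3.54, a 3.14-fold higher mean (limma, adjusted p = 0.0565). The SD was 0.482 over Nissle and 0.44 over germ-free samples, but 2.05 over CEC and 1.37 over conventional samples, which enter the shared spread. In a fit of Nissle and germ-free alone its adjusted p was 1.23e-05, the lowest over its alternatives, which reached 0.134.

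Mm00549170_m1 overlapped by 1 Nissle sample. It ran from -0.21 to 2.01 with a median of 0.94 in Nissle and from -2.05 to -0.02 with a median of -0.66 in germ-free samples, and only Nissle replicate 7 lay within the germ-free range. It was 3.38-fold higher (limma, adjusted p = 0.000577). Without Nissle replicate 8, the 7 assays named so far that had passed did so again, with adjusted p from 0.0014 to 0.0303.

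**Figure D2:**
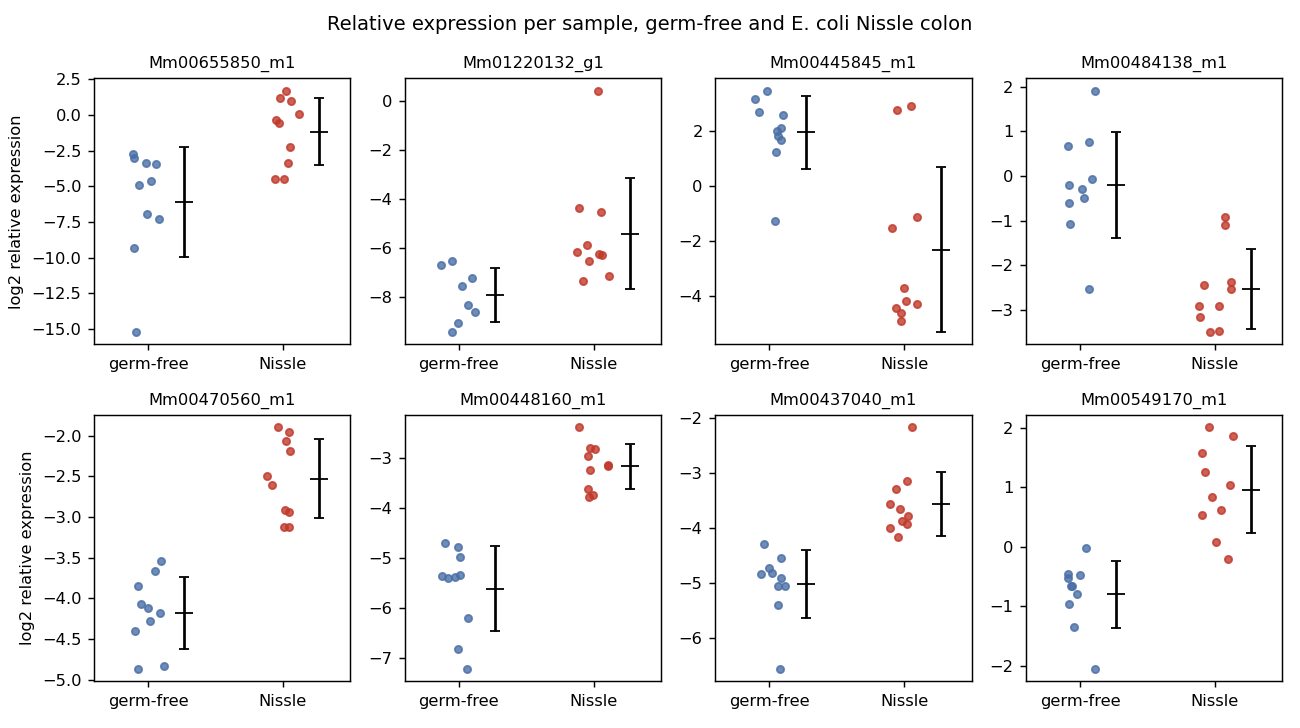
Log2 relative expression of 8 assays in each of the germ-free and Nissle samples (10 per group, 8 germ-free for Mm01220132_g1); each dot is a sample, with mean and SD at its right, and each panel has its own axis. Nissle replicates 4 and 5 sit at 2.93 and 2.79 in Mm00445845_m1, and the groups do not overlap in Mm00470560_m1, Mm00448160_m1 and Mm00437040_m1.

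The 16 calls include 9 rises besides the largest 2, from 1.44-fold to 5.49-fold. Of these 9, 5 were below 1 log2 unit (1.44-fold to 1.66-fold, adjusted p from 0.0071 to 0.0462). These small rises were in assays with a median germ-free Ct of 20.05 to 22.21, near or above the level of the typical assay, and their SD over germ-free samples was 0.191 to 0.337 log2 units. The other 3 falls were 1.55-fold to 3.15-fold (adjusted p from 0.0071 to 0.042). For 10 of the 16 every measured Nissle sample lay on the changed side of the germ-free mean, and in the other 6 at least 8 samples did. The 16 were called on the differences of these same samples, so such counts were largely set in advance. All 10 Nissle samples also lay on 1 side in assays that did not pass, such as Mm00472520_m1 and Mm01326247_m1.

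Nissle samples differed in how many of the 16 assays left the germ-free range. The assays were chosen on these samples, so the counts are descriptive. Replicates 1, 9 and 10, and replicate 8 that stood apart over the whole panel, lay beyond the range, in the direction of the change, for 15 of the 16. Replicate 3 did so for 12, replicate 2 for 11, and replicates 6 and 7 for 9 each, with 15 measured in replicates 2 and 7. Replicates 4 and 5 had the lowest counts, 8 and 7, at the end of a gradual range. The mean of replicates 4 and 5 lay within the germ-free range for 8 of the 16 assays, and no other pair was looked at in this way.

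**Figure D3:**
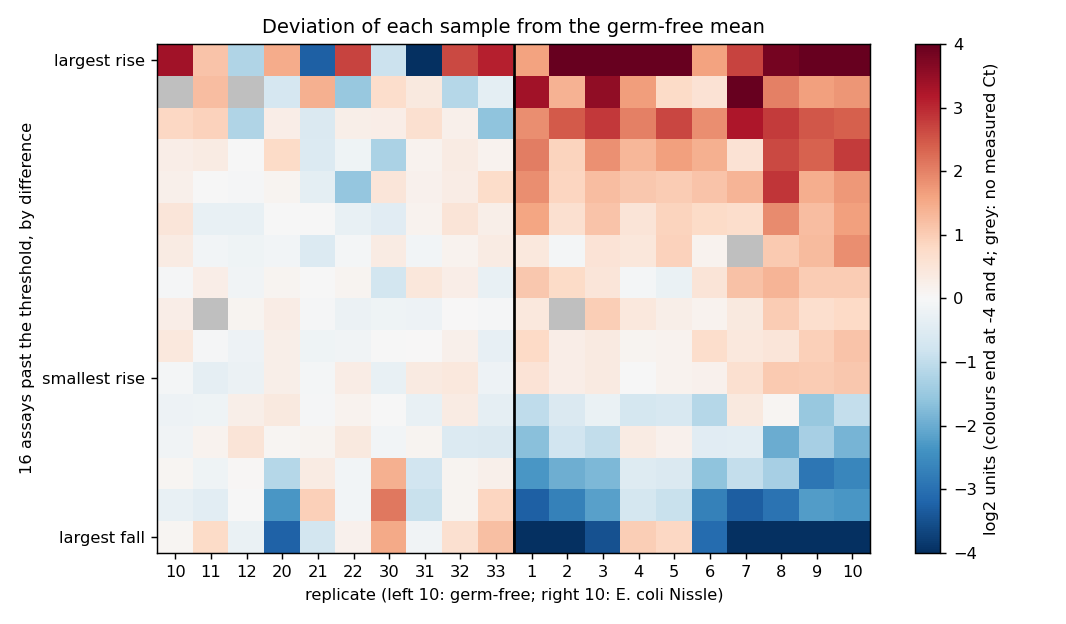
Deviation from the germ-free mean, in log2 units, of the 16 assays past the threshold (rows, from the largest rise to the largest fall) in the 20 samples (columns, by replicate number); grey marks a missing Ct. Nissle replicates 4 and 5 are paler than most other Nissle samples in the lowest 4 rows, and replicates 1, 8, 9 and 10 lie beyond the germ-free range in 15 rows.

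Spread differed between the groups. The SD was larger over Nissle than over germ-free samples in 160 of 215 assays, with a median ratio of 1.3. The median SD was 0.606 in Nissle and 0.483 in germ-free samples. Without Nissle replicate 8 the median ratio was 1.06, and the SD was larger in Nissle in 118 of 214 assays. The difference in spread was not tested, since assays of 1 sample are not independent.

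**Figure D4:**
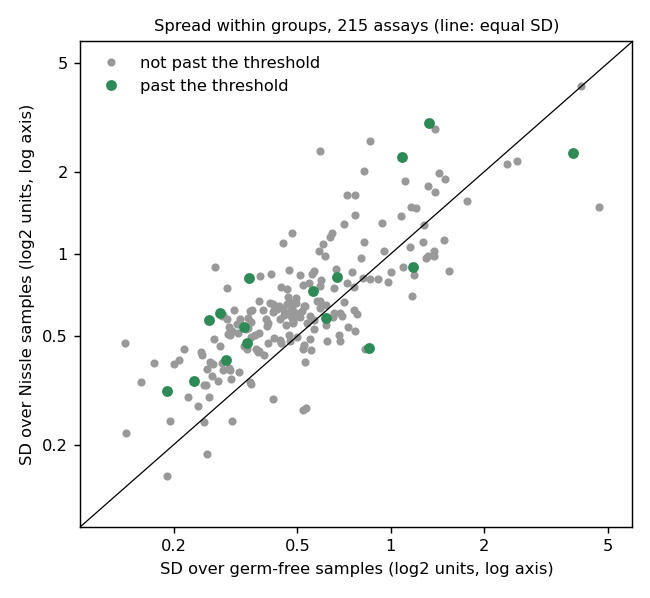
SD over the Nissle samples against SD over the germ-free samples for 215 assays, both in log2 units on log axes; the line marks equal SD. Most points, 160 of 215, lie above the line, and 11 assays have an SD above 2 in either group.

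In 11 assays the SD exceeded 2 log2 units in either group, in 10 over Nissle and in 5 over germ-free samples, and 3 of the 11 passed the test. The wide spread came in different forms, and the 3 assays described here were picked after their values were seen. In Mm00446420_m1, 1 sample of each group stood alone: Nissle replicate 1 at 6.50 and germ-free replicate 12 at 6.34. The other 9 Nissle samples lay between -7.34 and -5.57 and the other 9 germ-free samples between -7.72 and -4.64, and the mean difference was -0.05 (limma, adjusted p = 0.996).

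Mm01320260_m1 was split in germ-free mucosa and narrower after Nissle. Germ-free samples had 4 values between 0.94 and 1.86, 3 between -7.92 and -6.07, and 3 undetermined wells. All 10 Nissle samples were measured, between -6.41 and -1.42, and 9 of them fell in the gap between the germ-free clusters. The difference was -1.77 (SE 1.43, limma, adjusted p = 0.474) and leaves out the undetermined germ-free wells.

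Mm04207460_m1 was the assay just outside the threshold, 6.89-fold higher (limma, adjusted p = 0.0519). Nissle replicates 5, 7 and 9 lay between 0.40 and 0.55 and replicate 8 at -0.66, while the other 6 Nissle samples were between -7.66 and -2.95. The 7 measured germ-free samples ran from -7.95 to -4.39, and 3 more had been filled in. The assay just inside the threshold had an adjusted p of 0.0462.

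Detection, that is whether or not a well was deposited as undetermined, was compared separately. Values filled in before deposit were not counted as undetermined here. Assays whose only missing wells had been filled in, such as Mm04207460_m1 and Mm01220132_g1, therefore did not enter the comparison. It says nothing about detection in those assays. At least 1 well of the 20 samples was undetermined in 20 assays. Of these, 9 were detected in more Nissle than germ-free samples, 4 in fewer, and 7 in equal numbers, 3 of them in no sample. No assay passed by Fisher's exact test (two-sided, Benjamini-Hochberg adjusted over the 20), and none had an unadjusted p under 0.05. The lowest unadjusted p was 0.0867, for Mm00656925_m1, detected in 10 of 10 Nissle and 6 of 10 germ-free samples.

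Nissle was set directly against the other mono-association to see which changes are particular to the strain. Of 214 assays, 5 passed (2.34%), all higher after Nissle. Of the 16 assays above, only Mm00549170_m1 was among them, 1.28 log2 units above CEC (SE 0.347, limma, adjusted p = 0.0379). That call was lost in a fit of the 2 groups, where no assay passed and 27 had an unadjusted p under 0.05. Its CEC samples ran from -3.27 to 0.45 with a median of 0.14, against a Nissle median of 0.94, so the medians lay closer than the means. For Mm00437040_m1 the difference from CEC was 0.21 with a standard error of 0.262, and for Mm00448160_m1 it was -0.34 with a standard error of 0.483. By medians the direction of Mm00448160_m1 was the opposite, -3.14 in Nissle and -3.45 in CEC, whose highest sample lay at 2.18. For Mm00655850_m1 the difference from CEC was -2.40 with a standard error of 1.3, so neither direction is settled. Mm04207460_m1, just outside the threshold against germ-free, was also among the 5. It was 3.14 log2 units above the 8 measured CEC samples (SE 0.867, limma, adjusted p = 0.0426). In the fit of the 2 groups it did not pass either.

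Against conventional mucosa 70 of 215 assays passed (32.6%), 54 higher after Nissle (25.1%) and 16 lower (7.44%). When the 10 most stable assays served as reference, the balance turned to 10 higher and 45 lower. Of the 16 assays changed from germ-free, 9 also differed from conventional mucosa, 6 rises being higher and 3 falls lower than there. The same Nissle samples enter both comparisons, so this count and its directions are not independent of how the 16 were chosen. With the 10 most stable assays as reference, the median difference from conventional over all assays moved from 0.24 to -0.25. Which of the 9 hold with that reference was not examined. Mm00655850_m1 was 5.41 log2 units above conventional (SE 1.34, limma, adjusted p = 0.0028). Mm00445845_m1 was lower than conventional, by -4.61 on the log2 scale (adjusted p = 0.000148), and Mm00437040_m1 was higher by 1.03 (adjusted p = 0.0035). For Mm00448160_m1 the difference was 0.15 with a standard error of 0.483, and for Mm00484138_m1 it was -0.38 with a standard error of 0.55. The labels give no colonisation time for conventional mice, so time and kind of microbiota cannot be told apart.

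The count and its balance against germ-free moved with the processing. All 16 assays kept their direction in each of the alternatives in which they were tested, up to 36 each. Several of these alternatives, such as the fit without CEC replicate 6, change the error but not the difference. Many others leave out a sample, for assays that were chosen on their difference over these same samples. A constant direction was thus largely set in advance and says little about how firm the calls are. Past the threshold in all of their alternatives were 5 assays: Mm00448160_m1, Mm00437040_m1 and Mm00549170_m1, which rose, and Mm00445845_m1 and Mm00484138_m1, which fell. When the reference was the 10 most stable assays, 18 passed, 5 higher and 13 lower, and 9 of the 16 were among them. These 10 assays differed in mean Ct by -0.328 cycles (Nissle minus germ-free), the median Ct by -0.121, and the median difference over all assays moved from 0.07 to -0.13. None of the 5 small rises passed with that reference. Without CEC replicate 6, which lies in neither group but enters the shared spread, 25 assays passed, including all 16.

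**Figure D5:**
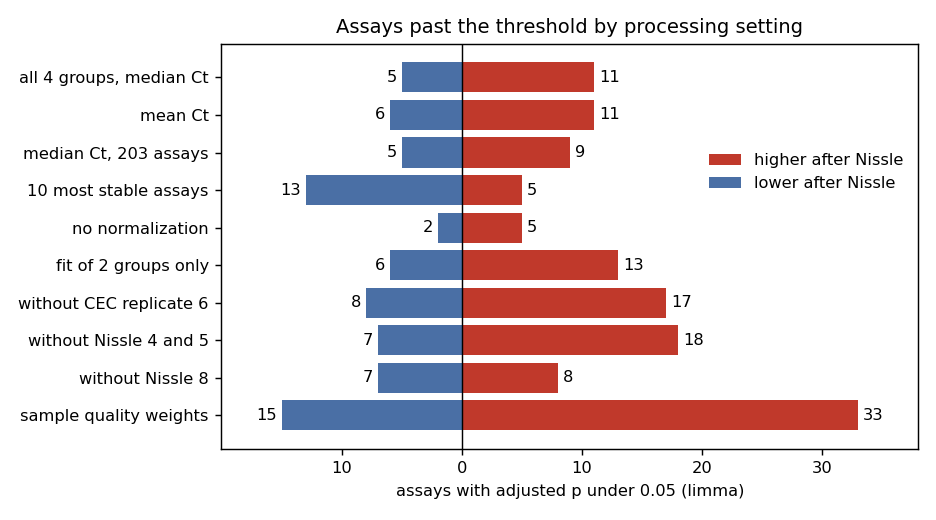
Number of assays past the threshold, higher to the right and lower to the left, under 10 processing settings; the top bar is the setting used throughout. The balance is 11 higher and 5 lower there, and 5 higher and 13 lower when the 10 most stable assays are the reference.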

How the data were processed

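The deposited table holds raw Ct values, per the file headers, which call it a truncated example. Their threshold setting and any filter on wells were not given in the sources used here. Per the labels' protocols, RNA was isolated with the mirVana kit. Over the 20 samples 202 wells (4.51%) were at 40 and left missing. A further 74 values (1.65%) equalled the mean of the rest of their group, or of all but 1 of the rest, within 2e-06 cycles. These had been filled in before deposit and were left missing. The normalizer was each sample's median Ct over the 153 assays with a measured value in every sample, so a change shared by most assays is not seen.

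Groups were compared with limma 3.58.1 (R 4.3.3; lmFit, eBayes) in 1 fit over the 4 groups, with Benjamini-Hochberg adjustment over all assays tested and a threshold of 0.05. The permutation test of the sample median Ct used scipy 1.17.1 with 100000 resamples. The precision is set by the number of samples, 10 per group, and by the spread shared over the 4 groups. Named by rule were the 2 largest rises and 2 largest falls past the threshold; the other named assays were chosen after their values were seen. The members, lists and tests were chosen with earlier results of these data known. Gene lists (12), markers of cell types and reference genes of the plan could not be matched to assay IDs and gave no result, so the labelled tissue was not checked against markers and the reference-gene normalizer was not run.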

Additional observations from a re-analysis of the deposited data

Results flagged for a closer look

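In 22 checks of a group of measured samples for a value far from the others, 6 stood out. The rule is set to flag about 1 in 20 by chance. Most checks were of the named assays, which were picked for their values, so the 6 cannot be set against that rate. Nissle replicate 8 lay 1.17 log2 units (median absolute difference) from the rest of its group, the next sample 0.557. It also had the highest Mm00437040_m1 value, -2.16. In germ-free samples, replicate 31 was lowest for Mm00655850_m1 (-15.23), replicate 20 for Mm00445845_m1 (-1.27) and replicate 22 for Mm00437040_m1 (-6.55). Nissle replicate 7 was highest for Mm01220132_g1 (0.41). The part of these samples in the results is given by the values without them, where these moved a result.

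Some of the 8 assays named for their Nissle and germ-free values also differed from another colonised group by the direct comparison in limma, which uses the same Nissle samples. Against conventional mucosa, where 32.6% of all assays tested passed, the differences were 5.41 for Mm00655850_m1 (adjusted p = 0.0028), -4.61 for Mm00445845_m1 (0.000148), -2.30 for Mm00470560_m1 (0.0022) and 1.03 for Mm00437040_m1 (0.0035). Against CEC, where 2.34% of all assays passed, it was 1.28 for Mm00549170_m1 (0.0379), and this call was lost in the fit of the 2 groups alone and with the replicate block, in which 0 assays passed (limma, 27 and 23 at an unadjusted p under 0.05).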

How the results depend on the processing

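The count of 16 assays against germ-free became 7 without normalization, 48 with sample quality weights and 25 without Nissle replicates 4 and 5. With 1 sample left out it ran from 12 to 25, the highest without CEC replicate 6. Against CEC the count of 5 became 3 with the 10 most stable assays, 0 in a fit of the 2 groups, 16 with weights, and 3 without CEC replicate 6 or Nissle replicate 8. Against conventional the count of 70 became 21 without normalization, 3 higher and 18 lower. With the replicate block, added after the data were seen, 0 assays passed against CEC (limma; 23 at an unadjusted p under 0.05) and 52 against conventional. The replicate numbers showed no general pairing. Deviations of same-numbered samples correlated at a median r of -0.06 with CEC (from -0.23 to 0.51) and -0.03 with conventional (from -0.38 to 0.28). In each, 1 Nissle sample of 10 correlated best with its own number. A batch shared by some pairs only was not tested. Germ-free and Nissle share 1 number, so no block could be fitted there. The sample median Ct difference kept its direction, from -0.195 to -0.052 with 1 sample left out. For scarce assays, a median standard error of 0.467 limits what can be seen.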
